A study of Mus musculus with 16 samples.

Results

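The genes described here serve the endoplasmic reticulum, the compartment in which secreted and membrane proteins are imported, folded, given sugar chains and, where folding fails, passed back to the cytosol for degradation. They were chosen by name from a list of 32 chaperones, disulfide isomerases, degradation factors, translocation factors and stress sensors. The rule for choosing genes used no measured value, but the list was drawn up with earlier results of these data known. Of the 32 listed genes, 31 were measured by a probe set that names 1 gene, out of 19938 genes tested. Sec61g, the small subunit of the import channel, lay only on 4 probe sets shared with other genes and was left out.

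RNA of mouse embryonic fibroblasts, the connective tissue cells that secrete collagen, was hybridised to 16 arrays, 1 for each culture plate. The 4 groups, of 4 plates each, were Atf5-knockdown cells with MG132, Atf5-knockdown cells with vehicle, control cells with MG132 and control cells with vehicle. MG132, an inhibitor of the proteasome, was given at 1 µM for 8 h, and the vehicle was DMSO over the same time. Knockdown cells carry a stable short hairpin that targets Atf5, which encodes a bZIP transcription factor, and control cells are labelled wild type and carry a scramble hairpin. Each line is thus 1 population with a stable construct, and the labels do not say whether it is a clone or a pool. A difference between the lines can therefore not be told apart from a difference between these 2 populations. The labels also do not tie the plates to separate cultures or days. The p-values thus reflect how much these plates varied, and part of that may be technical.

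Proteins enter the compartment through the Sec61 channel, and chaperones of the heat shock and lectin families hold them while disulfide bonds and glycans are formed. Misfolded chains are recognised by lectins, handed to the Hrd1 ubiquitin ligase complex (Syvn1 and Sel1l), drawn out of the membrane and degraded by the proteasome in the cytosol, a route called ER-associated degradation, or ERAD. An excess of unfolded protein is sensed by Ire1 (Ern1), Perk (Eif2ak3) and Atf6, which together drive the unfolded protein response. Its classical targets carry the endoplasmic reticulum stress element, ERSE, in their promoters, bound by Atf6 and Xbp1 together with the CCAAT factor NF-Y. Proteasome inhibition closes the exit of ERAD, and fibroblasts, as collagen-secreting cells, depend on this folding machinery.

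The promoters of 3 members are shown because they hold the exact elements that the members were searched for. Windows of 300 bases, from 250 before to 50 after the annotated start, came from RefSeq for GRCm38.p6, and 28 of the 32 listed genes matched a window by name. ERSE was searched as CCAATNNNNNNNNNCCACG, ERSE-II as ATTGGNCCACG, the unfolded protein response element UPRE as TGACGTGG, and the core of the C/EBP-ATF response element CARE as TGATGCAA, each on both strands and with no mismatch. Overlap between motifs was allowed. Each window is printed 5′ to 3′ along its gene, with the fixed letters of a match in capitals. The window of Hspa5, which encodes BiP, lies at chr2:34771840-34772139 on the plus strand and holds 1 ERSE. The window of Hsp90b1, which encodes Grp94, lies at chr10:86705395-86705694 on the minus strand and holds an ERSE in each orientation. The window of Herpud1, which encodes a membrane scaffold of the Hrd1 complex, lies at chr8:94386179-94386478 on the plus strand and holds a CARE core in reverse and then an ERSE-II.
Hspa5: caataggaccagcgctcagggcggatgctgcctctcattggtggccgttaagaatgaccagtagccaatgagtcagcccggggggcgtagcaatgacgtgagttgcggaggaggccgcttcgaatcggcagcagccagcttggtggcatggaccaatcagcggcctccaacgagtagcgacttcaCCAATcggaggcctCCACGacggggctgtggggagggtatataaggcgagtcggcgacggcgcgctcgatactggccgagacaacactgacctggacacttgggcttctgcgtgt
Hsp90b1: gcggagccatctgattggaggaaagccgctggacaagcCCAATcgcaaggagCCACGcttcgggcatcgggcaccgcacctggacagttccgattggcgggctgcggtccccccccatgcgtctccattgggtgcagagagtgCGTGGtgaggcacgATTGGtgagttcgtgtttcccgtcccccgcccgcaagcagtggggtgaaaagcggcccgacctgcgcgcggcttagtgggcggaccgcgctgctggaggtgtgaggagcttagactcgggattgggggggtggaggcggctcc
Herpud1: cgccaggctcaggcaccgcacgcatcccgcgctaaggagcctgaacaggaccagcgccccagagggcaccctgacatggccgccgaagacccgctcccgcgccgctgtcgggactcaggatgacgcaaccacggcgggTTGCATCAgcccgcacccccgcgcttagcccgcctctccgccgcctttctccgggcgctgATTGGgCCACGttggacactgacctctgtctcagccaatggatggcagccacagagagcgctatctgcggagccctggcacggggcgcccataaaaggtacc

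ERSE occurred in the windows of 8 members, where 39 of all 32851 windows, or 0.119%, held it. The 39 include the windows of these members. The list holds classical targets of the kind named above, so a high share among its genes is no independent result. The elements are set below one another to show the 9 bases between the fixed ends, which differed from gene to gene. Each is written in the direction of the motif, with the variable bases in lower case.
Hspa5: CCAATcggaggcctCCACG
Hsp90b1, upstream match: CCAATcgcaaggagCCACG
Hsp90b1, downstream match: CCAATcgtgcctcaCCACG
Calr: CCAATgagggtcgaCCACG
Canx: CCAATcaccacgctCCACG
Creld2: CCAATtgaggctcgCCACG
Pdia6: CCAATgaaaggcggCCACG
Derl3: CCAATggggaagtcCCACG
Syvn1: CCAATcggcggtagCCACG
ERSE-II was found in Herpud1 alone among the members and in 0.0365% of all windows, and the CARE core, again in Herpud1 alone, in 0.895%. UPRE was in the window of 0 members and in 0.676% of all windows. Manf, Hyou1, Derl1 and Sec61a1 were not matched to a window. These matches describe letters in a window and show no binding. Relative to the start, the ERSE of Syvn1 began at -44 and the upstream one of Hsp90b1 at -212, and the other matches to ERSE began between these.

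**Figure D1:**
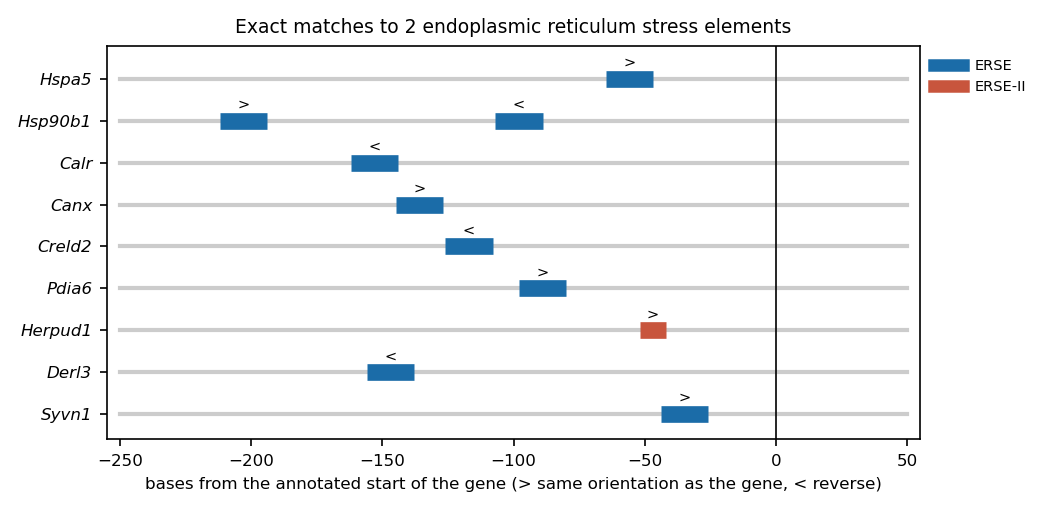
Exact matches to ERSE (blue) and ERSE-II (red) in the promoter windows of the 9 members that hold one. The horizontal axis gives bases from the annotated start of each gene, the arrowheads give the orientation relative to the gene, and all matches lie before the start, between -212 and -26.

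Atf5 was lower in the knockdown line in both conditions. Its probe set read 8.46 ± 0.03 with MG132 and 8.35 ± 0.06 with vehicle in knockdown cells, against 8.77 ± 0.10 and 8.57 ± 0.10 in control cells (log2 intensity, SD, n = 4 each). The log2 difference between the lines, knockdown minus control, was -0.31 ± 0.05 with MG132 (limma adjusted p = 0.000148) and -0.22 ± 0.05 with vehicle (adjusted p = 0.00321). These were changes of -19.3% and -14%, and a partial knockdown cannot be told apart here from a compressed probe set signal. Here and below a log2 fold change carries the standard error of the limma fit, and p-values were adjusted by the Benjamini-Hochberg method across the 19938 genes, with a threshold of 0.05. Array medians were between 7.71 and 7.82. Knockdown arrays lay at 7.75 to 7.82 with MG132 and 7.71 to 7.77 with vehicle, and control arrays at 7.78 to 7.82 and 7.74 to 7.76. Such offsets are of the size of the smallest changes reported, and both the scaling and the number of arrays limit the calls. The labelled cell type was checked against markers. Over the 16 arrays the 10 fibroblast markers averaged 8.39 (Pdgfra) to 14.16 (Vim), with Fn1 at 13.62, Col1a1 at 12, Thy1 at 8.57 and Col3a1 at 8.94. The 6 macrophage markers averaged 5.78 (Adgre1) to 8.4 (Cd14), with Ptprc at 6.26 and Cd68 at 8.28, the 6 endothelial ones 5.78 (Emcn) to 7.53 (Cdh5) and the 6 epithelial ones 6.1 (Esrp1) to 8.53 (Krt8). The lists thus overlapped at their edges, and with no detection calls no marker is called absent. The mean of 6 macrophage markers lay at 7.06 to 7.11 in knockdown cells with MG132 and 6.89 to 7.01 with vehicle, against 6.85 to 6.9 and 6.75 to 6.82 in control cells, so it moved with both line and drug. Of these 6 genes 1 was called higher in knockdown cells with MG132 and 2 with vehicle, and 2 rose with MG132 in each line. Endothelial and epithelial marker means overlapped between the lines with vehicle, and with MG132 the endothelial mean was 6.78 to 6.83 in knockdown and 6.84 to 6.96 in control cells. In the same order of groups, the mean of 10 fibroblast markers was 10.92 to 10.99, 11.12 to 11.19, 10.79 to 10.8 and 11.03 to 11.07, and it was lower with MG132 in both lines. The part of these marker differences in the results below was not tested, and fewer cells of a type cannot be told apart from less RNA per cell in such samples.

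Arrays of the same group differed along 1 main gradient, with 37.8% of the variance inside the groups. Control MG132 4, knockdown vehicle 1, control vehicle 1 and control vehicle 4 lay toward its low end, with scores of -14.6, -13, -6.09 and -4.27, and counts without these 4 arrays are given beside the main ones. Knockdown MG132 2, kept in those counts, also scored -4.27.

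On the deposited scale, most of the 31 listed members rose with MG132 in both lines. In knockdown cells 21 of 31 members rose and 2 fell, where 16.4% of all genes rose and 24.3% fell. In control cells 19 rose and 3 fell, where 16.8% of all genes rose and 19% fell. The median log2 fold change of the members was 0.17 in knockdown and 0.15 in control cells, beside 0.03 over all genes in each. Changes were mostly modest, and with a minimum change of 1.5-fold 3 members were called higher and 1 lower in knockdown cells, and 2 higher and 0 lower in control cells. Without the 4 arrays named above 21 rose and 3 fell in knockdown cells, and 18 rose and 2 fell in control cells. With each array centred on its median the counts were 15 higher and 5 lower in knockdown cells and 13 higher and 4 lower in control cells.

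**Figure D2:**
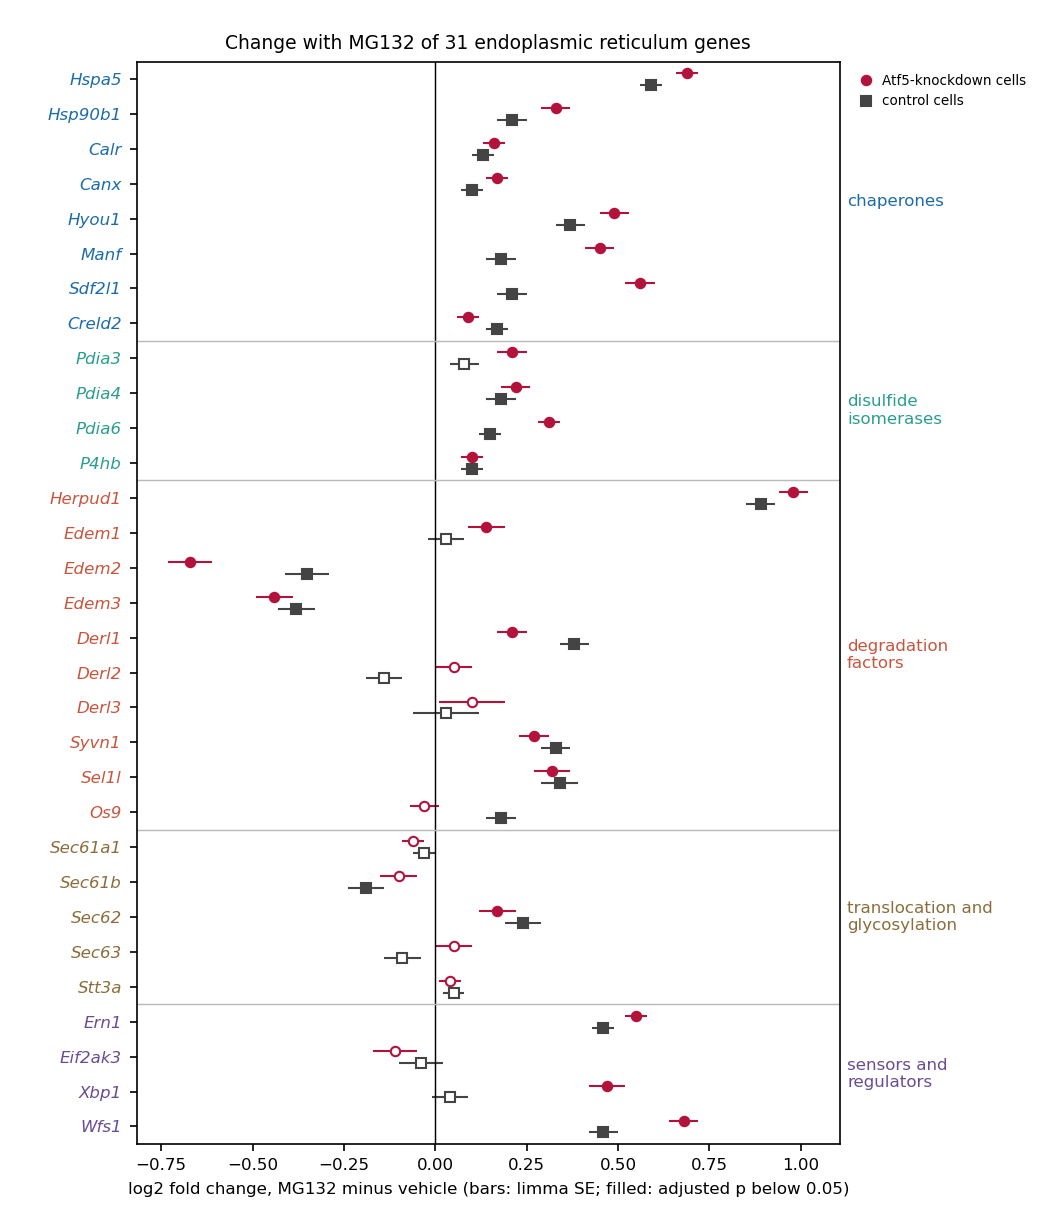
Log2 fold change with MG132 (MG132 minus vehicle) of the 31 members, grouped by role, in Atf5-knockdown cells (red circles) and control cells (grey squares), with limma standard errors and filled symbols where the adjusted p is below 0.05. All 8 chaperones lie right of 0 in both lines, Herpud1 is farthest right at 0.98 and 0.89, and Edem2 and Edem3 lie left of 0.

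All 8 chaperone genes rose with MG132 in both lines, with a median log2 fold change of 0.39 in knockdown and 0.19 in control cells; with arrays centred on their medians Calr, Canx and Creld2 no longer passed in knockdown cells, nor Calr and Canx in control cells. Hspa5 encodes BiP, the Hsp70 chaperone that binds unfolded chains and holds the stress sensors inactive. Its log2 intensity was 13.83, 13.89, 13.88 and 13.86 with MG132 and 13.15, 13.16, 13.2 and 13.18 with vehicle in knockdown cells. In control cells it was 13.75, 13.75, 13.78 and 13.72 with MG132 and 13.13, 13.17, 13.2 and 13.14 with vehicle. Every MG132 array thus lay above every vehicle array, while the vehicle arrays of the 2 lines overlapped. The increase was 1.62-fold in knockdown cells (0.69 ± 0.03, limma adjusted p = 1.67e-11) and 1.51-fold in control cells (0.59 ± 0.03, adjusted p = 1.1e-10).

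Hyou1, or Grp170, exchanges nucleotide on BiP so that it can release its client. It read 11.98, 11.88, 11.94 and 11.94 with MG132 and 11.4, 11.46, 11.48 and 11.45 with vehicle in knockdown cells. In control cells it read 12.07, 12.07, 12.01 and 12.01 with MG132 and 11.77, 11.62, 11.63 and 11.66 with vehicle. The knockdown arrays were below the control arrays in each condition, yet the drug separated the arrays in both lines. The log2 fold change was 0.49 ± 0.04 in knockdown cells (limma adjusted p = 1.77e-08) and 0.37 ± 0.04 in control cells (adjusted p = 4.98e-07). Hsp90b1, or Grp94, the Hsp90 of this compartment, rose by 0.33 ± 0.04 in knockdown and 0.21 ± 0.04 in control cells (limma adjusted p = 1.22e-06 and 0.000266). The calcium-binding lectin chaperones, which hold glycoproteins while they fold, rose little. Calr, soluble in the lumen, rose by 0.16 ± 0.03 in knockdown and 0.13 ± 0.03 in control cells, and Canx, its membrane-bound relative, by 0.17 ± 0.03 and 0.1 ± 0.03. The change of Canx in control cells (limma adjusted p = 0.0192) no longer passed without the 4 arrays (0.07, adjusted p = 0.173) or with control vehicle 1 (0.07, adjusted p = 0.0667) or control MG132 3 (0.09, adjusted p = 0.0502) alone left out.

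Manf and Sdf2l1 are small lumenal partners of BiP. Manf read 11.22, 11.16, 11.09 and 11.15 with MG132 and 10.75, 10.72, 10.67 and 10.67 with vehicle in knockdown cells. Control cells gave 11.17, 11.25, 11.25 and 11.13 with MG132 and 11.05, 11, 11.04 and 11.01 with vehicle. With MG132 the lines overlapped, and with vehicle all 4 knockdown arrays were lower. Sdf2l1 read 11.47, 11.42, 11.37 and 11.37 with MG132 and 10.79, 10.79, 10.86 and 10.93 with vehicle in knockdown cells. On the control arrays it read 11.29, 11.3, 11.32 and 11.32 with MG132 and 11.11, 11.05, 11 and 11.21 with vehicle. The groups of each line did not overlap for either gene. Manf rose by 0.45 ± 0.04 in knockdown cells (limma adjusted p = 3.88e-08) and 0.18 ± 0.04 in control cells (adjusted p = 0.00117), and Sdf2l1 by 0.56 ± 0.04 (2.41e-08) and 0.21 ± 0.04 (0.000953). Creld2, a stress-inducible lumenal protein, was the only chaperone-group member with the smaller value in knockdown cells, 0.09 ± 0.03 against 0.17 ± 0.03 in control cells (limma adjusted p = 0.0325 and 0.000783). Its change in knockdown cells did not pass after a second quantile normalization (adjusted p = 0.0791) or with any 1 of the arrays knockdown vehicle 2 or 3 or knockdown MG132 1, 2 or 3 left out.

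**Figure D3:**
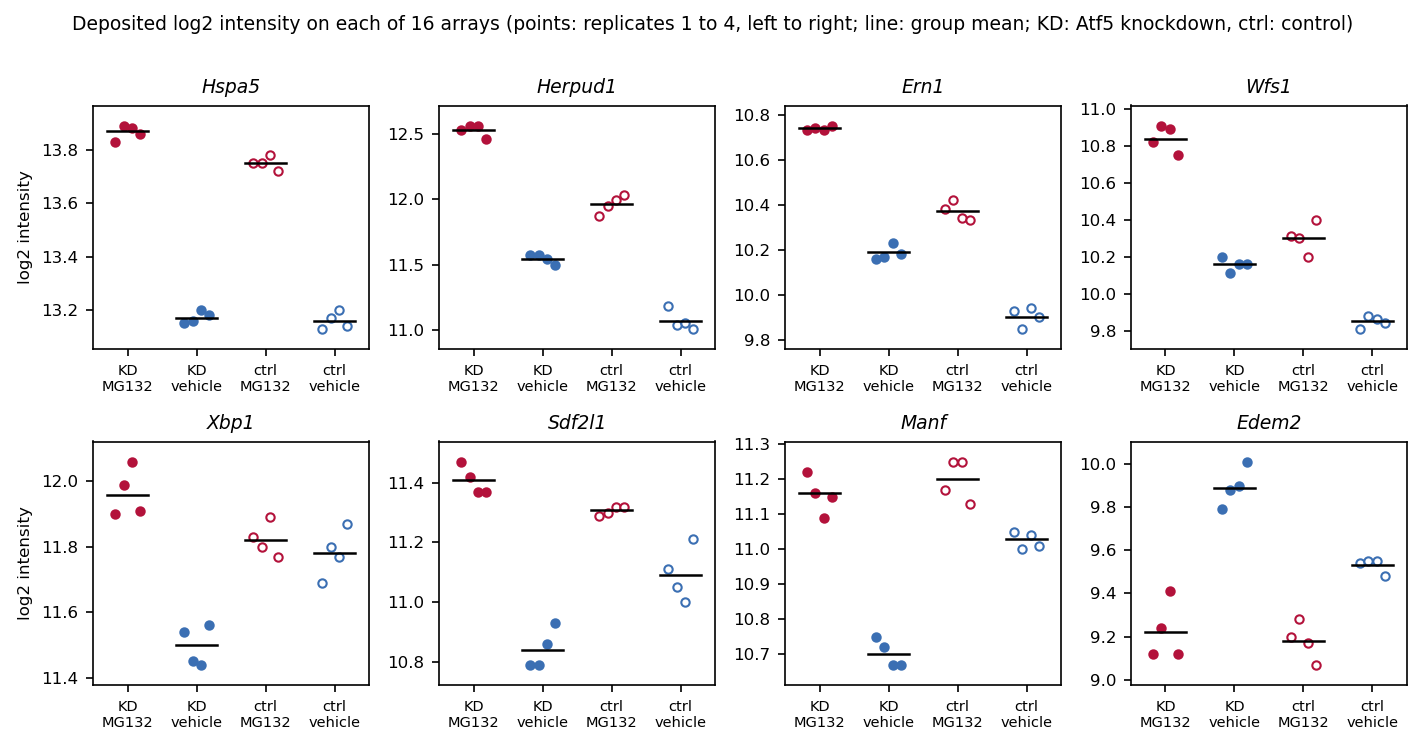
Deposited log2 intensity of 8 members on each of the 16 arrays, with knockdown before control and MG132 before vehicle, replicates 1 to 4 from left to right as points and group means as lines. Vertical axes differ between panels and do not start at 0. Xbp1 and Manf with vehicle are lower in knockdown cells than in control cells, and Edem2 with vehicle is higher.

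Disulfide isomerases form and rearrange disulfide bonds, and the 4 measured changed less than BiP. All 4 rose in knockdown cells and 3 of 4 in control cells, with medians of 0.21 and 0.12; with arrays centred on their medians Pdia4 (0.13, limma adjusted p = 0.055), Pdia6 (0.09, 0.0638) and P4hb (0.05, 0.416) did not pass in control cells, nor P4hb in knockdown cells (0.04, 0.452). Pdia6 read 11.77, 11.87, 11.83 and 11.8 with MG132 and 11.55, 11.49, 11.46 and 11.52 with vehicle in knockdown cells. The control line read 12.14, 12.16, 12.14 and 12.11 with MG132 and 12.04, 11.99, 11.98 and 11.96 with vehicle. No array of 1 group reached another group, and every knockdown array, the treated ones included, was below every control array. The log2 fold change of Pdia6 was 0.31 ± 0.03 in knockdown cells (limma adjusted p = 5.84e-07) and 0.15 ± 0.03 in control cells (adjusted p = 0.00177). Pdia4 rose by 0.22 ± 0.04 and 0.18 ± 0.04 in knockdown and control cells. A second, dimmer Pdia4 probe set rose by 0.42 ± 0.1 in knockdown cells (limma adjusted p over probe sets = 0.00248) and had 0.19 ± 0.1 in control cells (0.177). Pdia3, the isomerase that works with calnexin and calreticulin, rose by 0.21 ± 0.04 in knockdown cells and had 0.08 ± 0.04 in control cells (limma adjusted p = 0.000541 and 0.175). P4hb, protein disulfide isomerase itself and also a subunit of the collagen prolyl hydroxylase, rose by 0.1 ± 0.03 in each line (adjusted p = 0.00917 and 0.012).

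Among the 10 degradation factors, 5 rose and 2 fell in each line, and the values ranged from -0.67 to 0.98 in knockdown and -0.38 to 0.89 in control cells. Herpud1 read 12.53, 12.56, 12.56 and 12.46 with MG132 and 11.57, 11.57, 11.54 and 11.5 with vehicle in knockdown cells. In control cells it read 11.87, 11.95, 11.99 and 12.03 with MG132 and 11.18, 11.04, 11.05 and 11.01 with vehicle. The 4 groups were fully apart, in the order knockdown with MG132, control with MG132, knockdown with vehicle and control with vehicle. Herpud1 had the largest log2 fold change of the 31 members in both lines, 1.98-fold in knockdown cells (0.98 ± 0.04, limma adjusted p = 2.54e-11) and 1.85-fold in control cells (0.89 ± 0.04, adjusted p = 8.08e-11). Syvn1 and Sel1l both rose in each line. Syvn1, the Hrd1 ubiquitin ligase, rose by 0.27 ± 0.04 in knockdown and 0.33 ± 0.04 in control cells, and Sel1l, its adaptor, by 0.32 ± 0.05 and 0.34 ± 0.05 (limma adjusted p between 1.84e-05 and 1.64e-06).

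Edem2 and Edem3 fell in both lines. The EDEM proteins act on mannose residues of misfolded glycoproteins and so mark them for degradation. Edem2 read 9.12, 9.24, 9.41 and 9.12 with MG132 and 9.79, 9.88, 9.9 and 10.01 with vehicle in knockdown cells. Control cells gave 9.2, 9.28, 9.17 and 9.07 with MG132 and 9.54, 9.55, 9.55 and 9.48 with vehicle. All MG132 arrays were below all vehicle arrays, and the lines overlapped only with MG132. The log2 fold change was -0.67 ± 0.06 in knockdown cells, a level 0.627 times that with vehicle (limma adjusted p = 1.55e-07), and -0.35 ± 0.06 in control cells (adjusted p = 0.000228). Edem3 read 10.04, 10.13, 10.11 and 10.17 with MG132 and 10.46, 10.53, 10.51 and 10.7 with vehicle in knockdown cells. On the control arrays it read 9.88, 9.96, 9.85 and 9.82 with MG132 and 10.18, 10.26, 10.31 and 10.27 with vehicle. Edem3 thus separated by drug in each line, at higher values in knockdown cells. It changed by -0.44 ± 0.05 in knockdown and -0.38 ± 0.05 in control cells (limma adjusted p = 1.69e-06 and 1.02e-05). Edem1, the third of the family, had the opposite sign, 0.14 ± 0.05 in knockdown cells (adjusted p = 0.0182) and 0.03 ± 0.05 in control cells (0.663). Its increase in knockdown cells rested on replicate 3 with MG132, at 11.82 beside 11.65, 11.66 and 11.65, and did not pass without that array (0.1, adjusted p = 0.0684), without knockdown vehicle 1 (0.11, 0.0562) or without the 4 arrays (0.11, 0.0677).

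Derlins are membrane proteins through which misfolded chains leave. Derl1 read 11.9, 11.94, 11.94 and 11.92 with MG132 and 11.72, 11.7, 11.72 and 11.74 with vehicle in knockdown cells. The control line read 11.73, 11.78, 11.69 and 11.73 with MG132 and 11.45, 11.3, 11.31 and 11.34 with vehicle. Knockdown arrays with vehicle overlapped control arrays with MG132. Derl1 rose by 0.21 ± 0.04 in knockdown and 0.38 ± 0.04 in control cells (limma adjusted p = 0.000129 and 1.44e-07). Derl2 had 0.05 ± 0.05 and -0.14 ± 0.05, with limma adjusted p = 0.49 and 0.0501. It passed in control cells at -0.19 with centred arrays (adjusted p = 0.0132) or without control MG132 3 (0.00341), and at -0.16 without control vehicle 2 (0.0452). At -0.15 to -0.13 it also passed there after a second quantile normalization (0.0405) or with either filter on dim genes (0.0369 and 0.0428). The same held with a trended robust prior (0.0231) or array weights (0.0313). Derl3, which holds an ERSE in its window, read 7.21 to 7.54 in knockdown and 7.25 to 7.68 in control cells over both conditions and passed in neither line (limma adjusted p = 0.393 and 0.833), though without the 4 arrays it passed in knockdown cells (0.16, 0.029). Os9, a lectin that delivers glycoproteins to the ligase, read 10.75, 10.75, 10.88 and 10.7 with MG132 and 10.75, 10.78, 10.81 and 10.86 with vehicle in knockdown cells, where the conditions overlapped. In control cells it read 10.9, 10.84, 10.88 and 10.9 with MG132 and 10.66, 10.64, 10.7 and 10.79 with vehicle, without overlap. Its log2 fold change was -0.03 ± 0.04 in knockdown cells (limma adjusted p = 0.601) and 0.18 ± 0.04 in control cells (adjusted p = 0.00259), which did not pass with centred arrays (0.13, 0.0636).

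The translocation genes among the members changed little. Of the 5 measured genes of translocation and glycosylation, 1 rose in each line and 1 fell in control cells. Sec62, a membrane partner of the channel, rose by 0.17 ± 0.05 in knockdown and 0.24 ± 0.05 in control cells (limma adjusted p = 0.0155 and 0.00112), and without knockdown vehicle 3 it did not pass in knockdown cells (0.15, adjusted p = 0.0518), nor with centred arrays (0.1, 0.156). Sec61b, the beta subunit of the channel, read 10.11, 9.94, 9.93 and 9.99 with MG132 and 9.97, 10.17, 10.12 and 10.1 with vehicle in knockdown cells. Control cells gave 10.21, 10.19, 10.16 and 10.12 with MG132 and 10.48, 10.28, 10.4 and 10.27 with vehicle. The conditions overlapped in knockdown cells and were apart in control cells. It fell in control cells by 0.19 on the log2 scale (limma adjusted p = 0.0122) and had -0.1 in knockdown cells (0.172). Without the 4 arrays these values were -0.15 (adjusted p = 0.0556) and -0.14 (0.0278), so that the call moved to the other line, and without knockdown vehicle 1 alone the knockdown value also passed (-0.14, 0.0487). Both other Sec61b probe sets were lower in both lines, at -0.15 and -0.13 in knockdown and -0.17 each in control cells (adjusted p over probe sets 0.00471 to 0.0379). Sec61a1, which forms the pore, had -0.06 ± 0.03 and -0.03 ± 0.03, Sec63, which recruits BiP to the channel, 0.05 ± 0.05 and -0.09 ± 0.05, and Stt3a, a catalytic subunit of the oligosaccharyltransferase, 0.04 ± 0.03 and 0.05 ± 0.03, in knockdown and control cells. None of these 3 passed in either line (limma adjusted p between 0.148 and 0.498), but Sec61a1 passed in knockdown cells with centred arrays (-0.12, adjusted p = 0.0166).

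Among the 4 sensors and regulators, 3 rose in knockdown and 2 in control cells. Ern1, which encodes Ire1, the sensor that splices Xbp1 mRNA, read 10.73, 10.74, 10.73 and 10.75 with MG132 and 10.16, 10.17, 10.23 and 10.18 with vehicle in knockdown cells. On the control arrays it read 10.38, 10.42, 10.34 and 10.33 with MG132 and 9.93, 9.85, 9.94 and 9.9 with vehicle. The 4 groups did not overlap, and the fold changes were 1.47 in knockdown cells (0.55 ± 0.03, limma adjusted p = 6.23e-10) and 1.38 in control cells (0.46 ± 0.03, adjusted p = 4.78e-09). Wfs1, which encodes wolframin, a membrane protein linked to calcium handling in this compartment, read 10.82, 10.91, 10.89 and 10.75 with MG132 and 10.2, 10.11, 10.16 and 10.16 with vehicle in knockdown cells. The control line read 10.31, 10.3, 10.2 and 10.4 with MG132 and 9.81, 9.88, 9.86 and 9.84 with vehicle. Only the top of knockdown with vehicle met the bottom of control with MG132, at 10.2. Wfs1 rose 1.61-fold in knockdown cells (0.68 ± 0.04, limma adjusted p = 1.98e-09) and 1.37-fold in control cells (0.46 ± 0.04, adjusted p = 2.62e-07).

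Xbp1 encodes the transcription factor made active when Ire1 splices its mRNA, and spliced and unspliced forms were not told apart here. It read 11.9, 11.99, 12.06 and 11.91 with MG132 and 11.54, 11.45, 11.44 and 11.56 with vehicle in knockdown cells. In control cells it read 11.83, 11.8, 11.89 and 11.77 with MG132 and 11.69, 11.8, 11.77 and 11.87 with vehicle. The knockdown groups were apart, with the control arrays of both conditions between them. Xbp1 rose 1.38-fold in knockdown cells (0.47 ± 0.05, limma adjusted p = 4.18e-07) and had 0.04 ± 0.05 in control cells (0.568). Eif2ak3, the Perk kinase that slows translation under stress, had -0.11 ± 0.06 in knockdown and -0.04 ± 0.06 in control cells (adjusted p = 0.136 and 0.656), and passed in knockdown cells at -0.18 with centred arrays (0.046).

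The 2 responses rest on different arrays and were alike over the members. Of the 31, 18 rose in both lines, 2 fell in both and 0 were called in opposite directions. Across genes, Pearson's r was 0.882 and Spearman's rho 0.821 (n = 31 genes, which are not independent replicates). The value was larger in knockdown cells for 20 of the 31. Of the 9 measured members with an ERSE or ERSE-II in their window, 8 rose in each line, with median log2 fold changes of 0.27 in knockdown and 0.17 in control cells. Of the 18 with a window and neither element, 10 rose and 2 fell in knockdown cells (median 0.12), and 8 rose and 3 fell in control cells (median 0.06). The 4 members without a window are in neither set. Of them Manf, Hyou1 and Derl1 rose in both lines and Sec61a1 passed in neither. Most of the 9 with an element are chaperones or isomerases. Nearly all listed members of these roles that have a window rose, with or without an element. Among the members, element and role can therefore not be told apart here. Of 12 further redox enzymes and isomerases, described below, 2 rose in each line, and 6 fell in knockdown and 5 in control cells. Tested genes outside the list that hold an ERSE numbered 13, and 4 of them rose in knockdown and 2 in control cells. Those that hold an ERSE-II numbered 8, and 5 of them rose in knockdown and 4 in control cells. Both are few genes to set beside the 16.4% and 16.8% of all genes that rose. The printed elements of Hspa5, Hsp90b1 and Herpud1 belong to genes that rose, and that of Derl3 to one that did not pass.

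**Figure D4:**
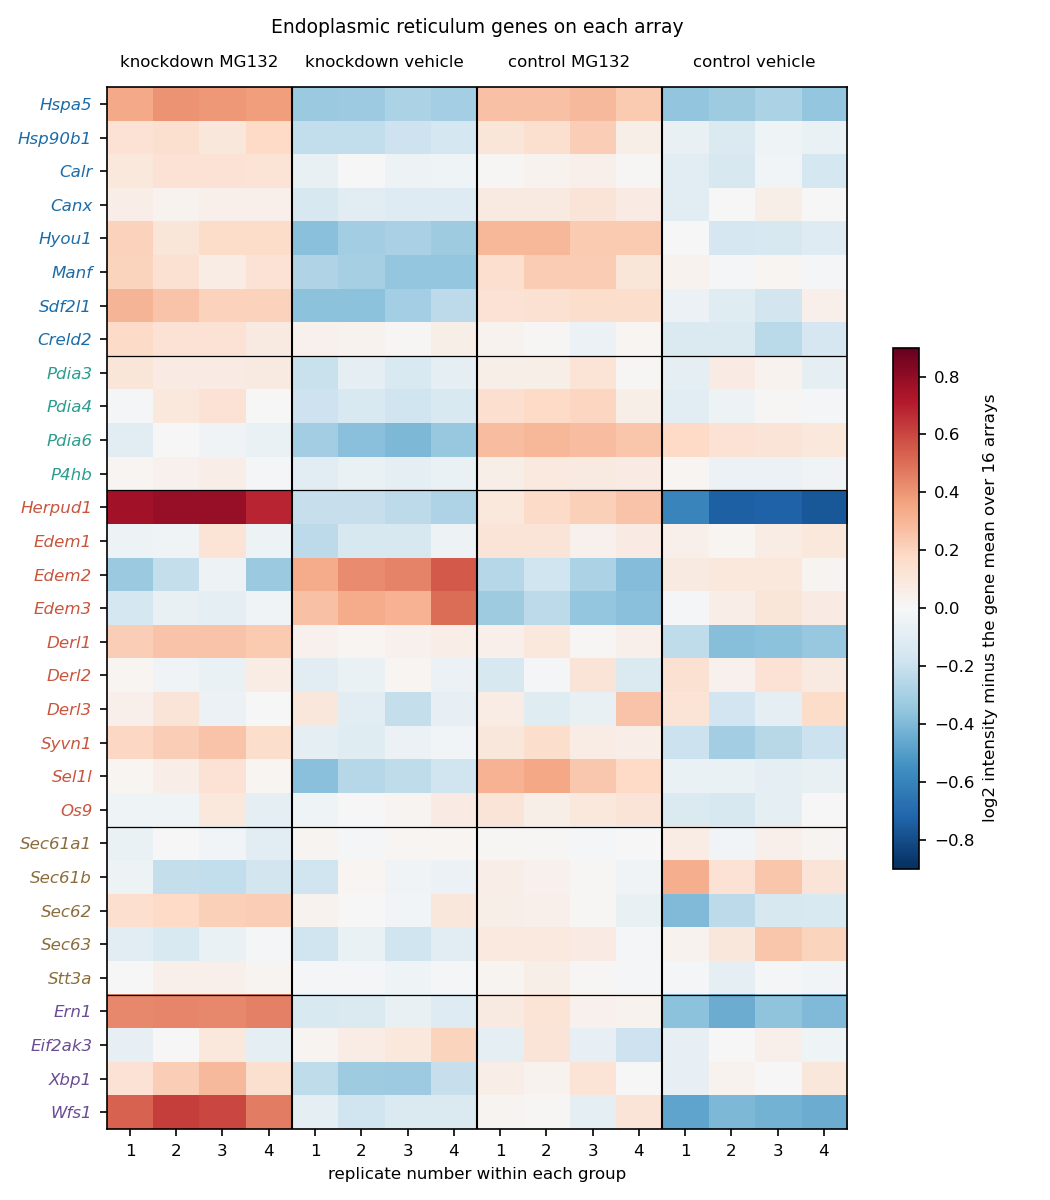
Log2 intensity of the 31 members on each array minus the mean of the gene over the 16 arrays, with genes in rows by role and arrays in columns by group and replicate number, red above and blue below that mean. Herpud1, Ern1 and Wfs1 are red on all 4 knockdown arrays with MG132 and blue on all 4 control arrays with vehicle, and Edem2 and Edem3 are red on the knockdown arrays with vehicle.

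The size of the response was then compared between the lines, as knockdown minus control of the 2 log2 fold changes. Of 31 members, 5 had a higher and 3 a lower response in knockdown cells, where 4.45% of all genes were higher and 10.1% lower. Higher were Xbp1 at 0.43 ± 0.07 (limma adjusted p = 0.000432), Sdf2l1 at 0.35 ± 0.06 (0.00135), Manf at 0.28 ± 0.05 (0.00194), Wfs1 at 0.23 ± 0.06 (0.0192) and Pdia6 at 0.17 ± 0.05 (0.0211). Xbp1, Sdf2l1, Manf and Pdia6 began from lower knockdown arrays with vehicle, whereas Wfs1 began from higher ones. Lower were Edem2 at -0.32 ± 0.09 (limma adjusted p = 0.0209), which fell further in knockdown cells, Derl1 at -0.18 ± 0.05 (0.023) and Os9 at -0.21 ± 0.06 (0.0261). Hspa5 and Herpud1 had differences of 0.1 ± 0.04 and 0.09 ± 0.06 that did not pass (limma adjusted p = 0.12 and 0.385). Without the 4 arrays 4 members were higher and 3 lower, since Pdia6 missed the threshold (0.17, adjusted p = 0.0524), as it did without knockdown vehicle 3 (0.15, 0.053). Derl1 missed it without control vehicle 2 (-0.16, adjusted p = 0.0501) or control vehicle 3 (-0.16, 0.0523), and Os9 missed it, at -0.22 to -0.19, without any 1 of control vehicle 1 or 2, control MG132 1, knockdown vehicle 3 or 4, or knockdown MG132 1, 2 or 4, and after either rescaling. Thus 1 member was lower without control vehicle 2. Without control MG132 3, the differences of Derl2 (0.24, adjusted p = 0.0175) and Hsp90b1 (0.16, 0.0409) also passed.

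In the absence of the drug the members were divided between the lines. With vehicle, 9 of 31 were higher and 13 lower in knockdown cells, where 21.5% of all genes were higher and 17.9% lower, and the median was -0.05 beside -0.01 over all genes. These contrasts use the same vehicle arrays as the MG132 responses, and the values of each are given side by side without a correlation. Listed chaperones and isomerases made up much of the lower group: 5 of 8 chaperones and 2 of 4 isomerases were lower, and 1 chaperone, Creld2, was higher (0.19 ± 0.03, limma adjusted p = 0.000132). Further folding genes, from the longer list below, did not share this. Of 12 redox enzymes and isomerases 5 were higher and 2 lower, of 6 co-chaperones and exchange factors 0 and 1, and of 7 glycan genes 2 and 2. Pdia6 was lowest, at -0.49 ± 0.03 or 0.713 times the control level (limma adjusted p = 1.63e-09), and its arrays, given above, did not overlap. Also lower were Manf, at -0.32 ± 0.04, Sdf2l1, at -0.25 ± 0.04, and Hyou1, at -0.22 ± 0.04 (limma adjusted p between 1.68e-06 and 0.000195). Hsp90b1, at -0.12 ± 0.04 (adjusted p = 0.0137), and Canx, at -0.1 ± 0.03 (0.0147), were lower by small amounts, and Hspa5 was at 0.01 ± 0.03 (0.805). Pdia4 was at -0.12 ± 0.04 on its main probe set (adjusted p = 0.0244) and at -0.54 ± 0.1 on the dimmer one (adjusted p over probe sets 0.000262).

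Degradation factors stood on both sides, 5 higher and 3 lower with vehicle. Herpud1 was higher by 0.47 ± 0.04, Derl1 by 0.37 ± 0.04, Edem2 by 0.36 ± 0.06, Edem3 by 0.29 ± 0.05 and Syvn1 by 0.17 ± 0.04 (limma adjusted p between 8.64e-08 and 0.0013). Edem1, at -0.2 ± 0.05, Sel1l, at -0.19 ± 0.05, and Derl2, at -0.14 ± 0.05, were lower (limma adjusted p = 0.00179, 0.00201 and 0.0355). The ligase and its adaptor, Syvn1 and Sel1l, thus differed between the lines in opposite directions, although both rose with MG132. Sec62 was higher (0.26 ± 0.05), while Sec61b (-0.27 ± 0.05) and Sec63 (-0.28 ± 0.05) were lower (limma adjusted p between 0.000148 and 0.000672). Ern1 (0.28 ± 0.03) and Wfs1 (0.31 ± 0.04) were higher and Xbp1 was lower (-0.29 ± 0.05), with limma adjusted p = 1.31e-06, 1.64e-05 and 8.86e-05. Without the 4 arrays 10 members were higher and 11 lower; Hsp90b1 (adjusted p = 0.102), Edem1 (0.0567) and Derl2 (0.224) no longer passed, while Pdia3 (-0.15, 0.00815) and Os9 (0.15, 0.0442) did. Leaving out control vehicle 3 alone also ended the calls of Canx (adjusted p = 0.0626), Pdia4 (0.0791) and Derl2 (0.0864) and brought Calr past the threshold (0.09, 0.0267). Pdia4 was also lost without control vehicle 4 or knockdown vehicle 1 or 3, and Derl2 without control vehicle 1 or 4 or knockdown vehicle 1, 2 or 4. Pdia3 was gained without knockdown vehicle 2, control MG132 3 or 4, or control vehicle 1 or 4, and Os9 without knockdown MG132 3 or control vehicle 4. With centred arrays 9 were higher and 9 lower, without Hsp90b1, Canx, Pdia4 and Derl2.

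**Figure D5:**
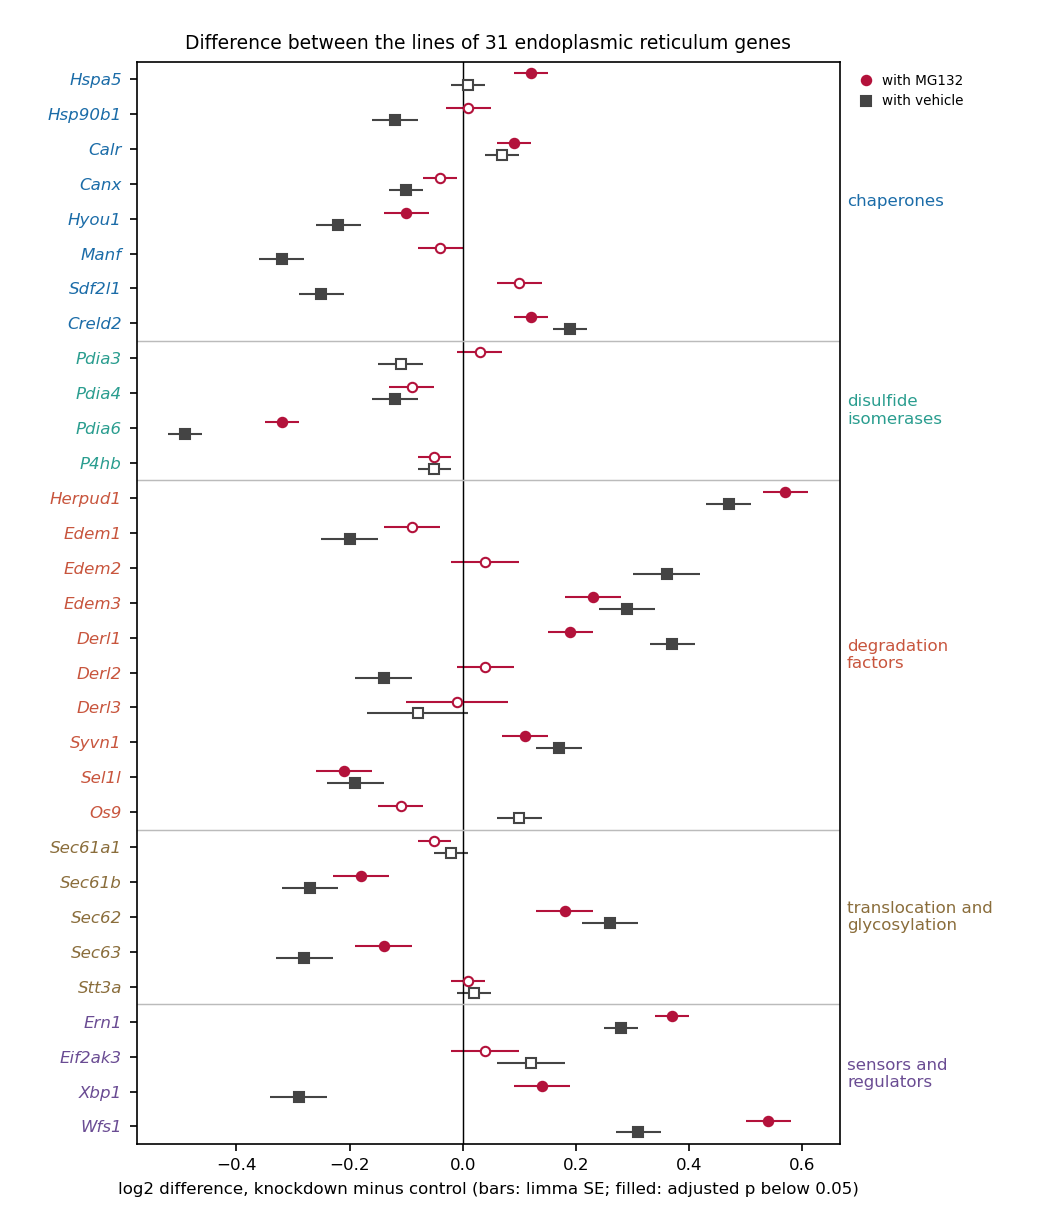
Log2 difference between the lines (knockdown minus control) of the 31 members with MG132 (red circles) and with vehicle (grey squares), with limma standard errors and filled symbols where the adjusted p is below 0.05. Pdia6 lies left of 0 in both conditions, Herpud1 and Wfs1 lie right of 0 in both, and Xbp1 lies left with vehicle and right with MG132.

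With MG132, 11 of 31 members were higher and 5 lower in knockdown cells, where 17.7% of all genes were higher and 20.3% lower. Herpud1 was higher by 0.57 ± 0.04 or 1.48-fold (limma adjusted p = 1.09e-08), Wfs1 by 0.54 ± 0.04 or 1.45-fold (2.44e-08) and Ern1 by 0.37 ± 0.03 or 1.29-fold (4.98e-08). Edem3, Derl1 and Sec62 were higher by 0.23 ± 0.05, 0.19 ± 0.04 and 0.18 ± 0.05. Hspa5 and Creld2 were each higher by 0.12 ± 0.03, and Syvn1 and Calr by 0.11 ± 0.04 and 0.09 ± 0.03 (limma adjusted p between 0.0044 and 0.0279). Among the genes lower in knockdown cells were again Pdia6 (-0.32 ± 0.03, adjusted p = 3.92e-07), Sel1l (-0.21 ± 0.05), Sec61b (-0.18 ± 0.05), Sec63 (-0.14 ± 0.05) and Hyou1 (-0.1 ± 0.04). Xbp1 had a called difference of the opposite sign in the 2 conditions, 0.14 ± 0.05 with MG132 (limma adjusted p = 0.0241) and -0.29 ± 0.05 with vehicle. Manf and Edem2, which differed with vehicle, had -0.04 ± 0.04 and 0.04 ± 0.06 with MG132 (adjusted p = 0.409 and 0.676). Without the 4 arrays 9 members were higher and 6 lower, as Calr (adjusted p = 0.0558) and Syvn1 (0.0634) no longer passed and Pdia4 did (-0.12, 0.0283). With control MG132 1, control MG132 2 or knockdown MG132 2 left out, 3 were lower. The Xbp1 difference did not pass, at 0.11 to 0.13, without knockdown MG132 2 (adjusted p = 0.0606) or 3 (0.0897) or control MG132 2 (0.0571) or 4 (0.0642). Hyou1, Calr, Syvn1 and Sec63 each lost their call when any 1 of 5 arrays of this comparison was left out, while the differences stayed close to those above. They were 0.09 for Calr, 0.09 to 0.11 for Syvn1, -0.11 to -0.09 for Hyou1 and -0.14 to -0.12 for Sec63, with adjusted p up to 0.0652, 0.0878, 0.118 and 0.0905. Sec61b lost it without knockdown MG132 3 (0.0518). That same omission brought Edem1 (-0.13, 0.0253), Os9 (-0.15, 0.00909) and Pdia4 (-0.12, 0.0424) past the threshold, Pdia4 also passed without control MG132 4 (-0.12, 0.0245), and Os9 without control vehicle 4 (-0.11, 0.0414).

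Other genes of the same pathways, 77 measured of a longer list, moved in both directions with MG132. In knockdown cells 27 rose and 27 fell, where 16.4% of all genes rose and 24.3% fell. In control cells 25 rose and 26 fell, where 16.8% of all genes rose and 19% fell. The medians were -0.03 and -0.02. The same shares stand beside the counts of the smaller lists below, which hold few genes each. Of 6 further co-chaperones and exchange factors 4 rose in each line, and 2 fell in knockdown and 1 in control cells. Dnajb9, or ERdj4, which directs BiP to misfolded clients, rose 2.18-fold in knockdown cells (1.12 ± 0.06, limma adjusted p = 5.32e-10) and 1.99-fold in control cells (1 ± 0.06, 2.09e-09), and was lower in knockdown cells both with MG132 (-0.46 ± 0.06) and with vehicle (-0.59 ± 0.06). Of 15 further degradation genes 7 rose and 3 fell in each line. Ufd1, a cofactor of the Vcp segregase that pulls proteins from the membrane, rose by 0.64 ± 0.04 in knockdown and 0.71 ± 0.04 in control cells, and Ubxn4, a membrane adaptor of Vcp, by 0.68 ± 0.04 and 0.67 ± 0.04 (limma adjusted p between 1.41e-10 and 5.32e-10). The oxidase gene Ero1b rose by 0.54 ± 0.07 and 0.81 ± 0.07.

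Of 19 further translocation genes 4 rose and 6 fell in knockdown cells, and 5 rose and 7 fell in control cells. Spcs3, a signal peptidase subunit, changed by -0.52 ± 0.04 in knockdown and -0.75 ± 0.04 in control cells (limma adjusted p = 1.7e-08 and 2.45e-10), and Tram2, a translocation-associated membrane protein, by -0.37 ± 0.04 and -0.64 ± 0.04 (1.6e-06 and 2.95e-09). Both had a smaller drop in knockdown cells, by differences of 0.23 ± 0.06 and 0.27 ± 0.06 (limma adjusted p = 0.0111 and 0.00589). Of 9 further oligosaccharyltransferase genes 2 rose and 3 fell in knockdown cells, and 1 rose and 4 fell in control cells, with Ostc at -0.38 ± 0.04 and -0.53 ± 0.04. Of 12 further redox enzymes and isomerases 2 rose and 6 fell in knockdown cells, and 2 rose and 5 fell in control cells. The 7 genes of glycan trimming and lectin transport gave 3 and 4 in knockdown and 2 and 3 in control cells. The smallest p in each line belonged to a decrease, Ganab in knockdown cells (-0.22 ± 0.04, limma adjusted p = 8.58e-05) and Mogs in control cells (-0.51 ± 0.06, 4.03e-06). Prkcsh, the beta subunit of glucosidase II, rose by 0.19 ± 0.03 in knockdown and 0.26 ± 0.03 in control cells.

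The largest changes of the longer list were among its sensors and regulators, and what drove them was not tested. Ddit3, or Chop, a pro-apoptotic transcription factor, rose 3.51-fold in knockdown cells (1.81 ± 0.04) and 5.2-fold in control cells (2.38 ± 0.04). The difference was -0.57 ± 0.06 (limma adjusted p = 5.35e-06). With vehicle Ddit3 was already 1.65-fold higher in knockdown cells (0.72 ± 0.04, limma adjusted p = 1.2e-10), so the smaller response began from a higher level. Ppp1r15a, or Gadd34, which restores translation, rose 4.18-fold in knockdown cells (2.06 ± 0.04, limma adjusted p = 1.28e-15) and was 1.82-fold higher in knockdown than in control cells with MG132 (0.86 ± 0.04, 2.41e-11). The responses of 77 genes differed between the lines in 6 higher and 3 lower, where 4.45% of all genes were higher and 10.1% lower. Between the lines, 26 of the 77 were higher and 10 lower in knockdown cells with MG132, and 25 were higher and 14 lower with vehicle. Over all genes 17.7% were higher and 20.3% lower with MG132, and 21.5% and 17.9% with vehicle, so the count of lower genes with vehicle was near the background. Of the 9 further sensors and regulators 5 were higher in knockdown cells with MG132 and 8 with vehicle, and 0 were lower.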

How the data were processed

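The values that the authors deposited are log2 probe set intensities with 2 decimals for 35556 probe sets on 16 arrays, all of which were used. The submitters' processing notes name RMA and Partek; versions, settings and the build of the array design are not given here. RMA makes array distributions alike and so hides a shift common to most genes, and arrays can compress changes of dim and very bright probe sets. Genes were assigned from the annotation of the platform (23410 listed, 21789 with 1 symbol, 1621 with several, which were left out; 21698 matched RefSeq by gene ID, which changed 0 symbols). Where a gene had several probe sets (999 genes), that with the highest mean was taken, leaving 19938 genes. With limma 3.58.1 under R 4.3.3, lmFit and eBayes fitted 1 mean per group to the 16 arrays together (12 residual degrees of freedom, 4.12 from the prior, two-sided tests, no filter on dim probe sets, no detection calls). The 5 contrasts were MG132 minus vehicle in each line, knockdown minus control in each condition and the difference of the responses. The fit was tested on simulated data. A gene is called higher or lower at an adjusted p below 0.05. All members are named, with up to 2 genes of each further list by smallest p. Members and lists were chosen with earlier results of these data known. Groups and replicate numbers came from the sample titles. Same-numbered arrays correlated at -0.501 to 0.396 in their deviations, so the numbers were not taken as pairs. Alternatives, given in the closing section, changed the normalization, filter, probe set choice, arrays in the fit, prior, array weights, fold minimum and replicate block. Windows and motifs were read in Python 3.11.15, and matplotlib 3.10.9 drew the figures.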

Additional observations from a re-analysis of the deposited data

Results flagged for a closer look

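On 3 occasions 1 array stood far from the other 3 of its group, by Dixon's test over 124 groups of 4 arrays, where chance alone gives about 1 in 20. Edem1 read 11.82 in knockdown MG132 3, above a next value of 11.66, a gap of 0.941 of the group's range. Edem2 read 9.48 in control vehicle 4, below a next value of 9.54 (0.857 of the range). Stt3a read 13.22 in knockdown vehicle 3, with the other 3 arrays at 13.25 (1 of the range), a spread of little more than the rounding of the deposited values.

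The response to MG132 differed between the lines, by the test of the difference itself, for 8 of 31 members. Values are knockdown minus control on the log2 scale, and positive ones mean a higher response in knockdown cells. They were 0.43 for Xbp1, 0.35 for Sdf2l1, 0.28 for Manf, 0.23 for Wfs1, 0.17 for Pdia6, -0.18 for Derl1, -0.21 for Os9 and -0.32 for Edem2. All 4 knockdown MG132 arrays of Xbp1 lay above all 4 knockdown vehicle arrays, while the control arrays of the 2 conditions overlapped.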

How the results depend on the processing

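Of 4454 recomputed single-member values over 29 settings, 4213 kept their side of the threshold, 183 lost a call, 58 gained one and 0 called values changed sign. Another 42 that were not called changed sign. Of the lost calls 85 came from the 1.5-fold minimum, which left 2 members higher and 0 lower in the control response, 3 and 1 in the knockdown response, and 0 and 0 between the lines in either condition and for the difference of the responses. With arrays centred on their medians 5 members were lower in the knockdown response and 3 with MG132 between the lines. This setting also moved the share of higher calls over all genes from 46.8% to 31.7% in the control response and from 40.3% to 24% in the knockdown response, where the members split 13 to 4 and 15 to 5. Array weights gave 4 lower in the knockdown response and changed its share of higher calls over all genes to 50.8%. A trended robust prior gave 8 higher in the difference of the responses, and a second quantile normalization split that difference 6 to 2. Leaving out 1 array in turn gave 3 to 6 lower members between the lines with MG132, 1 to 3 lower and 4 to 7 higher in the difference, 8 to 11 higher between the lines with MG132, 9 to 10 higher and 10 to 14 lower with vehicle, 19 to 21 higher and 2 to 3 lower in the knockdown response, and 18 to 19 higher and 3 to 4 lower in the control response. The causes of these shifts were not tested.

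The replicate number as a block left 153 of 155 values on their side of the threshold. Hyou1 (-0.1, limma adjusted p = 0.0508) and Syvn1 (0.11, 0.0516) no longer passed between the lines with MG132, so 10 members were higher and 4 lower there, and no other count moved. In 16 of 48 cases an array correlated best with the array of its own number, and same-number correlations ran from -0.501 to 0.396, so the numbers were not taken as pairs, although a partial pairing cannot be told from these values. Leaving out the 4 arrays and keeping only genes with 1 probe set were chosen after seeing the data. The first kept 141 of 155 values on their side, with 9 lost and 5 gained, and the second 145 of 145. A fit on only the groups compared was not available for the difference of the responses, which needs all 4. No detection calls were used, so no member is called absent, and Derl3, at 7.21 to 7.68, had the largest standard error of the members in each response, 0.09.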
